A study of Homo sapiens with 2 samples.

Results

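The cells described here are the mitotic cells of a pool of OVCAR5 cells, picked inside each set of cells that carried the same pair of hashtags. OVCAR5 is a human ovarian carcinoma cell line, and by the labels these cells carried an interferon-gamma (IFNγ) sensing reporter and were CFP+. Hashtags are barcodes put on the cells of a sample before samples are mixed, and 8 were read here. A cell's score was its UMIs (counted mRNA molecules) of UBE2C, CENPF, AURKA, NEK2, PIF1 and CENPE per 10000 gene UMIs, and the mitotic cells were the top 10% by this score within each pair. They numbered 611, against 5503 other cells of the same 18 pairs, out of 7804 barcodes in the pool. The labels name 18 conditions of the 1 pool. Cultures received 1, 10 or 100 ng/ml IFNγ for 2, 6, 12 or 24 h, the unstimulated cultures were taken at the same 4 times, and cells given 100 ng/ml IFNγ or none for 24 h were also frozen. What every condition shared was the line, its reporter and its medium.

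Which hashtags marked which condition was not at hand, and no condition was inferred from expression. Mitotic cells were therefore set against the rest of their own pair, so that cells of the same hashtags, and of the same culture if a pair marks a culture, stood on both sides. Everything came from 1 pool. Cells and pairs are not replicate experiments, no p-value is given, and intervals in brackets are 95% intervals that cover counting error only.

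Mitosis is the phase in which condensed chromosomes are separated on the spindle and the cell divides. Its proteins, such as mitotic cyclins, spindle kinases and kinetochore proteins, are made from mRNAs that build up in G2 and are lost after division, so a score from these mRNAs does not tell late G2 from mitosis. Transcription is known to fall while chromosomes are condensed, and short-lived mRNAs are not replaced during that time. IFNγ signals through its receptor and the kinases JAK1 and JAK2, which leads to IRF1 and CIITA, and these in turn drive MHC class I and class II antigen presentation, guanylate-binding proteins, chemokines such as CXCL10 and the tryptophan-degrading enzyme IDO1.

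The members' score is what chose them, so their scores are a description. The mitotic cells had a median score of 29.7 (quartiles 25.7 and 34.7), against 2.90 in the rest, of which 644 cells (11.7%) scored 0. The lowest score that made a cell a member lay between 15.8 in the pair of hashtags 3 and 4 (pair 3+4) and 26.9 in pair 1+5, and the highest score left outside lay between 15.6 and 26.2 in the same 2 pairs. A fixed share per pair hides how many such cells a pair held. With 1 limit for the pool instead, the 90th percentile of all paired cells (a score of 22.7), the share of cells above it ran from 5.28% (3.25 to 8.03, exact binomial interval) in pair 3+4 and 5.57% in pair 5+6 to 15.3% (11.6 to 19.6) in pair 5+7. Mitotic cells per pair numbered 17 in pair 2+5 to 49 in pair 3+5.

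Mitotic cells gave more UMIs per barcode. Their median was 40927 UMIs per cell, against 29418 in the rest, a ratio of 1.39, and it was higher in 18 of 18 pairs, by 1.18-fold in pair 1+2 to 1.58-fold in pair 2+5. Median genes per cell were 6253 in mitotic cells and 5422 in the rest, also higher in 18 of 18 pairs. The median mitochondrial share was 10.5% in mitotic cells and 11.6% in the rest, lower in 17 of 18 pairs. Hashtag UMIs differed less, with a median of 1488 in mitotic cells and 1320 in the rest (a ratio of 1.13, above 1 in 15 pairs). Depth also set how well a cell was placed: 25 mitotic cells and 133 other cells had under 10000 UMIs, 8 of the 25 were in pair 1+2, and 14 mitotic cells were placed by under 10 UMIs of the score genes. Droplets that caught several cells of 1 pair cannot be seen by hashtags, and their part in the depth was not tested.

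**Figure D1:**
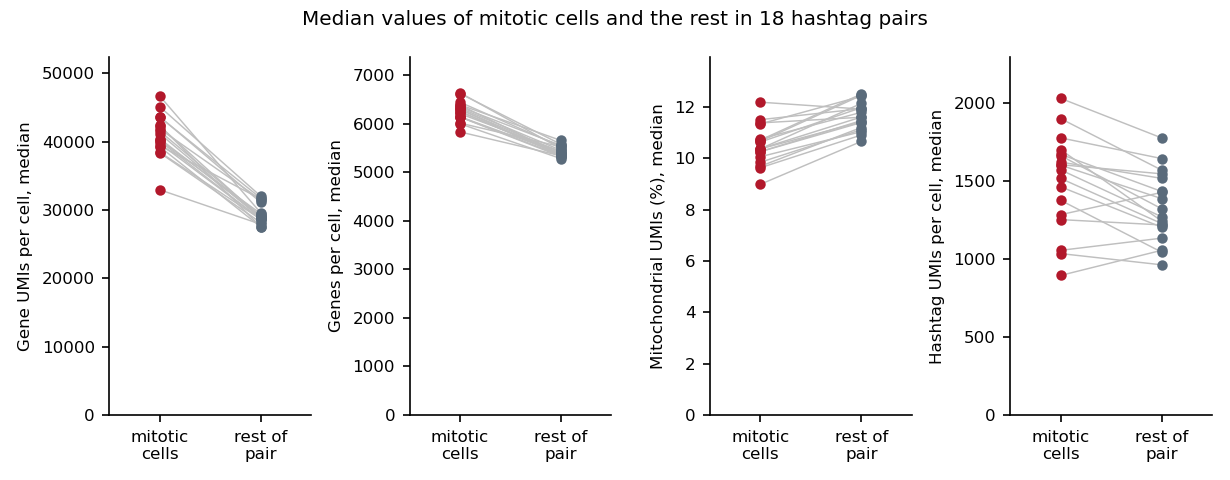
Median gene UMIs, genes, mitochondrial share in percent and hashtag UMIs per cell, with a line per hashtag pair joining its mitotic cells on the left to the rest of the pair on the right. Gene UMIs per cell were higher in the mitotic cells in 18 of 18 pairs and the mitochondrial share was lower in 17.

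Because of that depth, levels below are in CPM, a gene's UMIs over all gene UMIs scaled to the usual base, which is a share of the mRNA and not an amount per cell. The ratio given for a gene or list divides its UMIs in mitotic cells by the UMIs expected from the rest of each pair, so that a pair weighs the same on both sides. The score genes themselves describe the choice. UBE2C, the ubiquitin-conjugating enzyme of the anaphase-promoting complex, stood at 1007 CPM in the lowest pair, 1303 in the median pair and 1602 in the highest in mitotic cells, against 129, 232 and 316 CPM in the rest. These ranges did not overlap, but UBE2C is part of the score that chose the cells, so this is a description. Ratios of the 6 genes ran from 3.98 for CENPF, a kinetochore protein, through 4.88 for the centrosome kinase NEK2, 5.13 for the kinetochore motor CENPE and 5.16 for the spindle kinase AURKA, to 9.37 for the DNA helicase PIF1.

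Other genes known for G2 and mitosis went the same way as the score. They were listed with earlier results of these data known and cannot tell mitosis from late G2. Cells chosen by 8 other mitosis genes shared 58.6% of the members. Of 44 other G2 and mitosis genes, 44 were at least 1.5-fold higher in mitotic cells, with a median ratio of 3.58. Over the 10909 genes outside the score with at least 500 UMIs, 3.77% were that much higher (411 genes) and 5.08% that much lower (554 genes), with a median ratio of 0.997 and the central 90% of genes between 0.664 and 1.42. Those that also lay on that side in at least 15 of 18 pairs made up 3.49% (higher) and 4.39% (lower). Summed, the 44 genes took 14353 CPM in the median pair in mitotic cells (11932 to 16053) and 4786 CPM in the rest (3093 to 5909), and the pairs' ratios ran from 2.43 in pair 2+5 to 4.25 in pair 1+2. PLK1, a kinase that acts at centrosomes, kinetochores and the midbody, stood at 191, 233 and 292 CPM in the lowest, median and highest pair in mitotic cells, against 23.8, 41.7 and 67.6 CPM in the rest, a ratio of 5.56 (5.37 to 5.76). PLK1 was higher in mitotic cells in 18 of 18 pairs. CCNB1, cyclin B1, had a ratio of 3.93.

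Among genes with at least 2000 UMIs, the 10 highest ratios were all of genes with known roles in G2 or mitosis. They were FAM83D (6.82), a spindle protein, PLK1, BORA (5.50), an activator of PLK1, the centromere histone CENPA (4.83) and its chaperone HJURP (5.10), the importin KPNA2 (4.77), the cyclin F gene CCNF (4.75), the spindle pole protein ASPM (4.69), and the microtubule-binding proteins GTSE1 and PSRC1 (both 4.64). The 10 lowest included genes of S phase entry, DNA replication and repair, and replication-dependent histones. CCNE2, cyclin E2, was at 18 UMIs in mitotic cells and 2851 in the rest, a ratio of 0.0433 (0.0256 to 0.0686). Next came the linker histone gene HIST1H1D (0.104), FAM111B (0.120), HIST1H1B (0.159), the replicative helicase subunit MCM6 (0.175), the uracil glycosylase UNG (0.198), HIST1H1E (0.201), HIST2H2AC (0.209), the helicase loader CDC6 (0.220) and the S phase transcription factor E2F1 (0.238).

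Of 26 DNA replication genes, 19 were at least 1.5-fold lower in mitotic cells and 0 that much higher. Over the genes counted, 5.08% were that much lower and 3.77% that much higher. The sum of the 26 was 1282 CPM in the median pair in mitotic cells (987 to 1450) and 1987 CPM in the rest (1536 to 2300). It was lower in mitotic cells in 18 of 18 pairs. MCM6 was at 2.22, 10.6 and 18.3 CPM in the lowest, median and highest pair in mitotic cells, against 45.6, 55.5 and 74.9 CPM in the rest. TYMS, thymidylate synthase, was an exception in direction, with a ratio of 1.14 (1.11 to 1.16). Of 22 replication-dependent histone genes, 10 had at least 500 UMIs, and those 10 were lower. Summed histone mRNA was 208 CPM in the median pair in mitotic cells and 775 CPM in the rest, with pair ratios from 0.142 in pair 3+7 to 0.715 in pair 3+4. Most histone mRNAs carry no poly(A) tail and are poorly caught by 3′ libraries, and these genes also resemble each other in sequence, so their separate values are uncertain.

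The promoters of mitotic genes are shown because many of these genes are known to share a pair of promoter elements, a CCAAT box and the cell cycle genes homology region (CHR), searched here as TTTGAA. Many genes of the IFNγ response are known to carry gamma-activated sites (TTCNNNGAA) or interferon-stimulated response elements. The latter were searched by their core, GAAA and GAAA set 2 bases apart. The 4 promoters run 5′ to 3′ on the gene's strand over 300 bases around the start, from RefSeq on GRCh38.p14, and capitals mark matches to any of these motifs on either strand. CENPF lies at chr1:214602945-214603244 on the plus strand, PIF1 at chr15:64825598-64825897 on the minus strand, PLK1 at chr16:23678639-23678938 on the plus strand and IRF1, the first transcription factor of the IFNγ response, at chr5:132490724-132491023 on the minus strand.
CENPF: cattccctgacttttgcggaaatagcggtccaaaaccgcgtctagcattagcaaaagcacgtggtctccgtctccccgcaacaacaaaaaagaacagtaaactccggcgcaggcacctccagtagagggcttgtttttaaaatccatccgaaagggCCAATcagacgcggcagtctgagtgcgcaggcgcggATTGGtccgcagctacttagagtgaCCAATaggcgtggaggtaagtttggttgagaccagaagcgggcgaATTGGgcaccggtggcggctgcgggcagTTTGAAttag
PIF1: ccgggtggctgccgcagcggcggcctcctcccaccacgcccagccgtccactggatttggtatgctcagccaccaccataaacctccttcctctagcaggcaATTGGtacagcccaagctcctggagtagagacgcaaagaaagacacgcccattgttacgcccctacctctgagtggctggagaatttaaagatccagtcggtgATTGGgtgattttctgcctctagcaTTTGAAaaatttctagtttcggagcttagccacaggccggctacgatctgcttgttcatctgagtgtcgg
PLK1: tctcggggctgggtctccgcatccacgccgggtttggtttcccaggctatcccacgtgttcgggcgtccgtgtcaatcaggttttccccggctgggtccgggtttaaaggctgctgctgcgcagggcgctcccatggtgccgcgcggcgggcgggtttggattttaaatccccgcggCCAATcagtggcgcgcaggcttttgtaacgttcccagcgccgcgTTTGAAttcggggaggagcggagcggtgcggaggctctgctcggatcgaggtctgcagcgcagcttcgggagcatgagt
IRF1: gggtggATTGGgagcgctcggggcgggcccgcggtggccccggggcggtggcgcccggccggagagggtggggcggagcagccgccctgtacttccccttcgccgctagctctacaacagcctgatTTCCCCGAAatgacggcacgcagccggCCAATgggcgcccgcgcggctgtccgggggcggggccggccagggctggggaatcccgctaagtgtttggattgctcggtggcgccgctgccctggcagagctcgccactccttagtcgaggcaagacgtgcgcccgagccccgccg
The windows of CENPF, PIF1 and PLK1 held both CCAAT (or its reverse complement, ATTGG) and TTTGAA, and that of IRF1 held CCAAT and the gamma-activated TTCCCCGAA with no TTTGAA. No matches overlapped in these 4. The 3 mitotic promoters were chosen to show both elements and do not stand for the rest: NEK2 and CCNB1 held CCAAT with no TTTGAA, and CENPE held none of the motifs.

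Promoters were found for 8582 of the 10909 genes counted, and for CENPF, CENPE, NEK2 and PIF1 of the score genes, of which 2 of 4 held both elements. CCAAT and TTTGAA stood together in 24.9% of the promoters of genes at least 1.5-fold higher in mitotic cells (80 of 321) and in 4.75% of those at least 1.5-fold lower (17 of 358), against 4.01% for the genes counted and 6.08% of 27303 promoters in all. Among the 38 mitosis genes with a promoter the share was 57.9%. The interferon core was in 63.3% of 30 antiviral promoters and 56.2% of 16 class I promoters, against 2.94% for the genes counted. TTTGAA was in 0 of those 16. Other interferon lists did not split this way. CCAAT and TTTGAA stood together in 30.8% of 13 class II promoters, and 0 of these held the interferon core. Of 4 promoters of guanylate-binding proteins, 2 held TTTGAA and 3 the interferon core. Among 9 promoters of transcription regulators, 0 held the core. A match is a string of letters and not a measured binding site.

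Against this background, the interferon genes differed little as a set between mitotic cells and the rest. Of 149 genes with at least 500 UMIs in 11 interferon lists, 2 were at least 1.5-fold higher in mitotic cells (1.34%), 7 at least 1.5-fold lower (4.70%) and 140 neither; the shares over the 10909 genes were 3.77% and 5.08%. Asking also for that side in at least 15 of 18 pairs left 1 of the 2 (0.671%) and 7 of the 7 (4.70%), against 3.49% and 4.39% over the genes counted. Their median ratio was 0.975 with quartiles of 0.876 and 1.07, against 0.997 with quartiles of 0.891 and 1.11 over the genes counted. Between 0.8 and 1.25 lay 79.2% of the interferon genes and 76.0% of the genes counted. Another 14 listed genes had under 500 UMIs. Per cell, with no division by depth, the 10 interferon lists other than the chemokines were 1.17-fold to 1.36-fold higher in mitotic cells and the chemokines 0.850-fold, while the median gene was 1.31-fold higher.

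**Figure D2:**
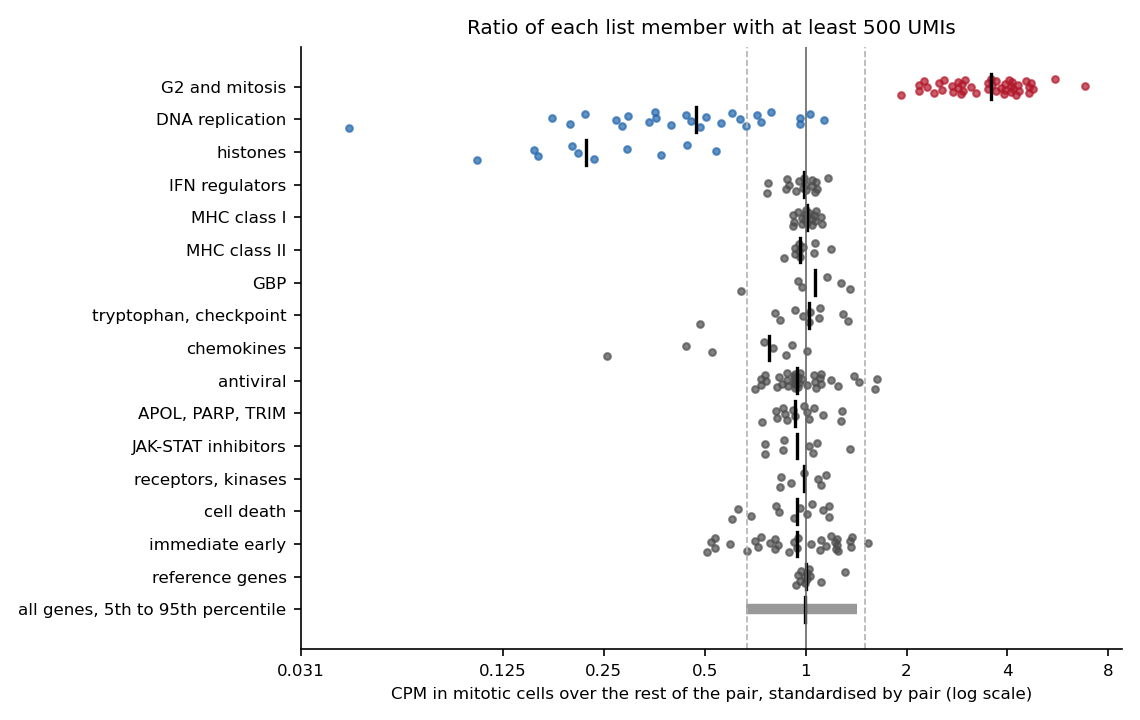
Ratio of CPM in mitotic cells to CPM in the rest of the pair on a log axis, with 1 point per list member with at least 500 UMIs, a black bar at each list's median, dashed lines at 1.5-fold either way, and the central 90% of the genes counted in grey at the bottom. The 44 mitosis genes lie right of the upper dashed line around a median of 3.58 and the histones around 0.222. Outside the dashed lines lie 0 of 19 MHC class I genes and 0 of 10 MHC class II genes. Of the genes counted, 3.77% were at least 1.5-fold higher and 5.08% at least 1.5-fold lower.

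MHC class I presentation took nearly the same share of mRNA in mitotic cells as in the rest. The list holds the class I heavy chains, B2M, the peptide transporter, the immunoproteasome and loading factors. Of its 19 genes, 0 passed 1.5-fold either way. Over the genes counted, only 3.77% were that much higher and 5.08% that much lower. A count of 0 or 1 in a short list, here and below, is therefore near that share. The class I sum was 4427, 7972 and 17999 CPM in the lowest, median and highest pair in mitotic cells, against 4377, 8369 and 17162 CPM in the rest. The ratio was 0.994 (0.989 to 0.998), above 1 in 9 pairs and below 1 in 9, and ran from 0.842 in pair 2+5 to 1.08 in pair 4+7. B2M, the light chain, stood at 1700, 2592 and 5816 CPM in the lowest, median and highest pair in mitotic cells, against 1729, 2932 and 5886 CPM in the rest (ratio 0.946, 0.939 to 0.954). Ratios were 1.07 and 1.04 for the heavy chains HLA-B and HLA-C, and 0.994 for the transporter subunit TAP1. The immunoproteasome subunits PSMB8 and PSMB9 were at 1.05 and 1.07, and PSME2, a proteasome activator subunit, at 0.999. Some members leaned one way across pairs without passing 1.5-fold: TAP2, the other transporter subunit, was at 1.12 and higher in mitotic cells in 16 of 18, PDIA3, a loading chaperone, at 0.915 and lower in 15, and B2M was lower in 14. HLA genes resemble each other, and the counting of reads that match several of them is not described.

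MHC class II genes gave a similar picture, on far fewer UMIs. Of 15 listed genes, 10 had at least 500 UMIs and 0 of these passed 1.5-fold, against 3.77% (higher) and 5.08% (lower) over the genes counted. The sum ran over 46.0, 249 and 2369 CPM in the lowest, median and highest pair in mitotic cells, against 59.6, 347 and 2234 CPM in the rest, with a ratio of 0.961 (0.946 to 0.977). It was below 1 in 14 of 18 pairs, from 0.645 in pair 1+2 to 1.14 in pair 5+8. The direction was not stable: the ratio was 1.047 with the top 5% of each pair, 1.027 with mitotic cells chosen by 8 other mitosis genes and 1.011 without the deepest 5% of cells. CD74, the invariant chain, stood at 10.0, 134 and 1318 CPM in the lowest, median and highest pair in mitotic cells, against 16.4, 195 and 1273 CPM in the rest (ratio 0.957). HLA-DRA had a ratio of 0.931 (0.884 to 0.981), which was 1.07 with the top 5% or the 8 other genes, HLA-DPA1 0.864 and HLA-DPB1 1.19 (1.05 to 1.34). Pairs overlapped almost wholly between mitotic cells and the rest. With each cell thinned to 10000 UMIs, which left out 25 mitotic and 133 other cells, HLA-DRA was seen in 27.5% of mitotic cells (23.9 to 31.3) and 28.7% of the rest (27.5 to 29.9), and without thinning in 42.1% of mitotic cells and 40.8% of the rest.

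Upstream of these genes, the receptor and kinase list had a ratio of 0.980 and 0 of 7 members past 1.5-fold. JAK1 was at 0.990 (0.941 to 1.04) and JAK2 at 1.11 (0.999 to 1.24); IFNGR1, the ligand-binding receptor chain, was at 0.845 and IFNGR2 at 0.906. Of 17 interferon-responsive transcription regulators, 0 passed 1.5-fold, with a summed ratio of 0.960. IRF1 stood at 34.1, 849 and 1280 CPM in the lowest, median and highest pair in mitotic cells, against 45.2, 1018 and 1394 CPM in the rest. Its ratio of 0.873 (0.859 to 0.887) was small in size but on the low side in 16 of 18 pairs; over the genes counted, 15.3% were lower in at least 15 of 18 pairs. CIITA, the class II transactivator, had 324 UMIs in mitotic cells and 2839 in the rest, a ratio of 0.772 (0.686 to 0.867), lower in 15 pairs. BATF2, a transcription factor of the interferon response, was at 1.17 and BATF3 at 0.768.

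The inhibitors of JAK-STAT signalling summed to a ratio of 0.923 (0.901 to 0.945), below 1 in 17 of 18 pairs, with 0 of 8 members past 1.5-fold. SOCS1, which IFNγ induces and which blocks the JAK kinases, stood at 2.00, 31.0 and 72.3 CPM in the lowest, median and highest pair in mitotic cells, against 2.74, 45.7 and 86.9 CPM in the rest. Its ratio was 0.758 (0.703 to 0.818), lower in 14 pairs, but 1.09 when the mitotic cells were chosen by 8 other mitosis genes. PTPN1, a tyrosine phosphatase that acts on JAK2, was at 0.859 and lower in 18 of 18 pairs.

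**Figure D3:**
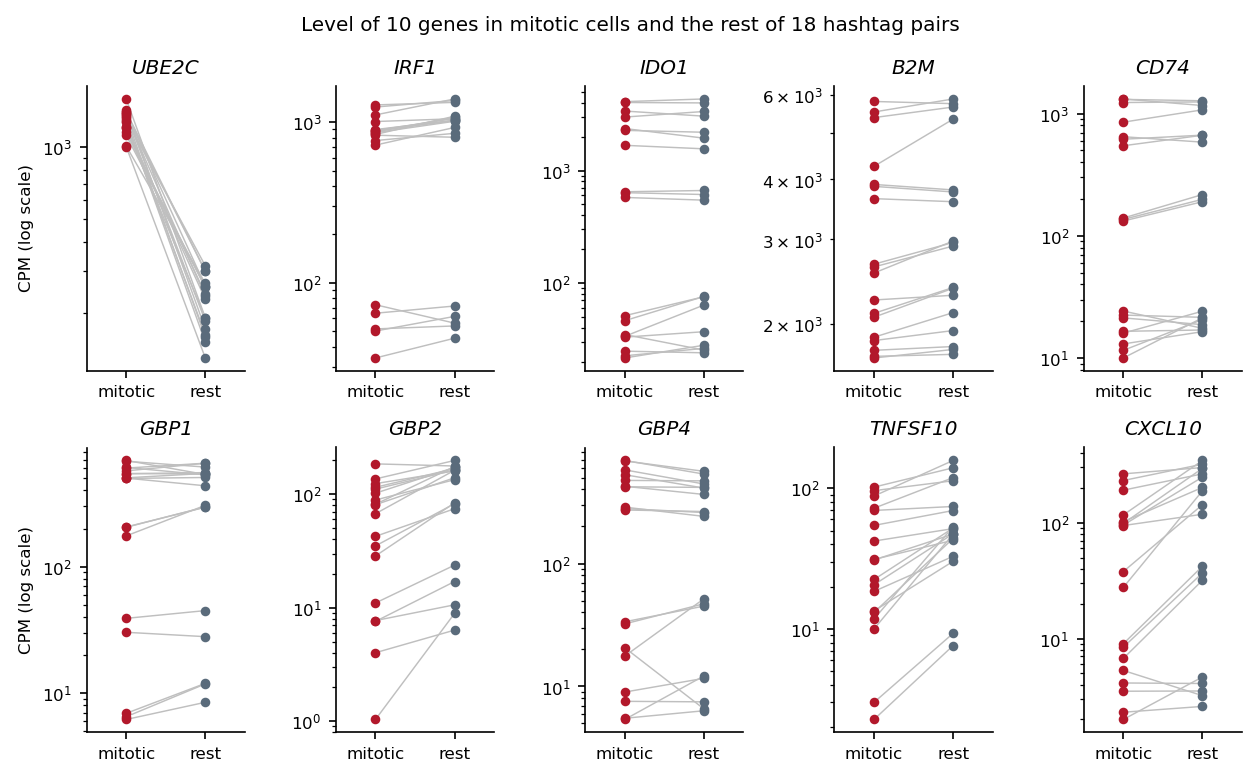
Level of 10 genes in CPM on log axes that differ between genes, with 1 line per hashtag pair joining the mitotic cells on the left to the rest of the pair on the right. UBE2C, which the score uses, was higher in the mitotic cells in each line, IDO1 was higher in 9 pairs and lower in 9, and GBP2 was lower in the mitotic cells in 17 of 18 pairs.

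Tryptophan breakdown and checkpoint genes did not move as a set, with a ratio of 1.02 and 1 of 11 members past 1.5-fold. IDO1, which starts tryptophan breakdown, stood at 21.6, 606 and 4096 CPM in the lowest, median and highest pair in mitotic cells, against 24.0, 579 and 4328 CPM in the rest (ratio 1.02, 1.01 to 1.03, higher in 9 pairs and lower in 9). WARS, the tryptophan tRNA ligase, was at 0.984 and CD274, which encodes PD-L1, at 0.927 (0.844 to 1.01). NECTIN2, an adhesion molecule and checkpoint ligand, was at 1.34 (1.28 to 1.40) and higher in mitotic cells in 17 of 18 pairs; 14.7% of the genes counted were higher in at least 15. The member past the threshold was KYNU, kynureninase, at a ratio of 0.483 on 38 UMIs in mitotic cells and 539 in the rest; it was 0.820 with the top 20% of each pair taken as mitotic.

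Guanylate-binding proteins, large GTPases of cell-autonomous defence, summed to a ratio of 1.02, but their members split. GBP2 stood at 1.03, 74.2 and 186 CPM in the lowest, median and highest pair in mitotic cells, against 6.34, 137 and 199 CPM in the rest. It was lower in mitotic cells in 17 of 18 pairs, with a ratio of 0.641 (0.609 to 0.673), and was the 1 of 6 members at least 1.5-fold lower. The fold fell short of that limit at 0.702 with the top 5% of each pair and at 0.676 without the deepest 5% of cells. GBP5 went the other way, at a ratio of 1.36 (1.30 to 1.42) and higher in 14 pairs; it passed 1.5-fold with the top 5% of each pair (1.598) and against the lower 50% by score (1.51). GBP4 was at 1.16 and GBP1 at 0.975. Thinned to 10000 UMIs, 37.2% of mitotic cells (33.3 to 41.3) and 49.5% of the rest (48.2 to 50.8) held a GBP2 UMI, while 31.1% of mitotic cells and 24.6% of the rest held a GBP5 UMI. GBP2 and GBP5 thus differed in opposite directions in the same set of cells, at the same depth.

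Chemokines were the interferon list furthest from 1. Their sum was 8.26, 144 and 549 CPM in the lowest, median and highest pair in mitotic cells, against 16.2, 280 and 680 CPM in the rest, a ratio of 0.645 (0.625 to 0.664) that was below 1 in 17 of 18 pairs. Of 15 genes, 8 had at least 500 UMIs, and 3 of these were at least 1.5-fold lower. The share that much lower over the genes counted was 5.08%. The median ratio of the 8 was 0.777, and the highest was that of CCL5, at 1.01 (0.857 to 1.18). CXCL10 alone gave 1888 of the list's 4579 UMIs in mitotic cells. CXCL10, a T cell attractant, stood at 2.00, 32.7 and 264 CPM in the lowest, median and highest pair in mitotic cells, against 2.59, 131 and 344 CPM in the rest. Its ratio was 0.525 (0.501 to 0.550), lower in 16 pairs. CCL2, a monocyte attractant, had 55 UMIs in mitotic cells and 1476 in the rest, a ratio of 0.256 (0.192 to 0.335), lower in 18 pairs. The neutrophil attractant CXCL2 had 77 UMIs in mitotic cells and 1193 in the rest, a ratio of 0.439 (0.344 to 0.553), lower in 17 pairs.

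The chemokine list varied most between pairs, from 0.185 in pair 1+3 to 1.46 in pair 1+2, and its UMIs sat in few cells. Of all CXCL10 UMIs in mitotic cells, 73.0% came from the richest 5% of them, and in the rest 62.0% did; for CCL2 it was 83.6% in mitotic cells and 74.1% in the rest. Counting intervals are too narrow for such genes. By cells, thinned to 10000 UMIs, CXCL10 was seen in 18.4% of mitotic cells (15.4 to 21.8) and 24.0% of the rest (22.9 to 25.2), lower in 14 pairs, and CCL2 in 2.05% of mitotic cells and 6.05% of the rest, lower in 16. The pool held no cell type known to lack these genes, so the share that free RNA gives was not measured. The other CXCR3 ligands did not pass the threshold, with ratios of 0.914 (0.824 to 1.01) for CXCL9 and 0.802 (0.759 to 0.847) for CXCL11. CXCL9 passed it under other settings, at 0.656 with cells thinned to 10000 UMIs, 0.650 without the deepest 5% of cells and 0.660 with mitotic cells chosen by 8 other mitosis genes.

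Of the genes of cell death in the interferon response, 2 of 12 were at least 1.5-fold lower in mitotic cells. Over the genes counted, 5.08% were that much lower. The cell death list had a ratio of 0.891, below 1 in 17 pairs. TNFSF10, which encodes the death ligand TRAIL, stood at 2.27, 26.7 and 102 CPM in the lowest, median and highest pair in mitotic cells, against 7.62, 49.6 and 158 CPM in the rest. It was lower in mitotic cells in 18 of 18 pairs, at a ratio of 0.628 (0.587 to 0.671), and by cells at 10000 UMIs it was seen in 22.7% of mitotic cells and 31.9% of the rest. The ratio was 0.777 with mitotic cells chosen by 8 other mitosis genes and 0.712 without the deepest 5% of cells. CASP10, an initiator caspase, was at 0.604 on 83 UMIs in mitotic cells and 938 in the rest, and 0.695 with the 8 other genes.

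Antiviral genes summed to a ratio of 0.935, below 1 in 13 pairs. Over the genes counted, 3.77% were at least 1.5-fold higher. A count near that share, 2 of 36 antiviral members, passed this limit. These were IFIT1, which binds foreign RNA ends, at 1.63 (1.55 to 1.72) and higher in 15 pairs, and OASL, a relative of the oligoadenylate synthetases, at 1.61 (1.53 to 1.69) and higher in 14. Much of these UMIs came from few cells. The richest 5% of mitotic cells held 53.3% of IFIT1 and 66.5% of OASL, and the richest 5% of the rest held 44.6% of IFIT1 and 73.2% of OASL. Without the 5% of each pair with most antiviral UMIs, a removal chosen after these values were seen, IFIT1 was at 1.15 and OASL at 1.25. They were also under the threshold with the top 5% (1.37 and 1.41) and the top 20% (1.43 and 1.41) of each pair, but higher, at 2.11 and 2.02, with mitotic cells chosen by 8 other mitosis genes, and OASL was at 1.78 without the deepest 5% of cells. ISG15, a ubiquitin-like modifier, was at 0.932, the GTPase MX1 at 0.883, and RNF213, a large ubiquitin ligase, at 0.737. RNF213 and IFITM3, a membrane protein that hinders virus entry (0.833), were lower in mitotic cells in 18 of 18 pairs. In the APOL, PARP and TRIM list, at a ratio of 1.03, 0 of 15 members passed 1.5-fold; APOL6 was at 1.28 (1.26 to 1.31) and higher in 18 of 18 pairs.

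The pairs differed far more in their interferon levels than mitotic cells did from the rest, and mitotic cells spanned a range of similar size. IDO1 was 190-fold apart between the highest and lowest pair in mitotic cells (131 to 286) and 181-fold apart in the rest (155 to 212), with pair 7+8 highest in both. Spans were 37.6 (27.9 to 51.7) in mitotic cells and 30.8 in the rest for IRF1, 132 (71.5 to 275) in mitotic cells and 77.5 in the rest for CD74, and 3.42 in mitotic cells and 3.40 in the rest for B2M. JAK1 spanned 1.68-fold in mitotic cells (1.27 to 2.25) and 1.17-fold in the rest (1.04 to 1.32). Pairs held 17 to 49 mitotic cells and 149 to 444 other cells, and counting noise in the smaller set widens a span. For CD74 the lowest pair held 10 UMIs in mitotic cells. For HLA-DRA, GBP2, CXCL9, CXCL10, CXCL11, CIITA, SOCS1 and CD274 the lowest pair held under 3 UMIs in mitotic cells, so that their spans there are lower bounds.

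Whether a gene differed step by step along the score was read from the 10 score deciles of each pair, each set against the pair's mean, with the mitotic cells as decile 10. Cells with a score of 0 were ordered at random, 485 of them in decile 1, 152 in decile 2 and 7 in decile 3. Median depth was higher from decile to decile, with 25249 UMIs in decile 1, 33448 in decile 9 and 40927 in decile 10. The rest of a pair was itself a mix along the cell cycle: DNA replication genes were at 0.488 times the pair's mean in decile 1, 1.42 in decile 6 and 0.647 in the mitotic cells, and histones at 0.192 in decile 1, 1.98 in decile 8 and 0.328 in the mitotic cells. Both lists were thus lower still in decile 1 than in the mitotic cells. TNFSF10 was at 2.25 times the pair's mean in decile 1, 0.910 in decile 5, 0.683 in decile 9 and 0.659 in the mitotic cells. GBP2 was at 1.74 in decile 1, 1.02 in decile 5, 0.679 in decile 9 and 0.672 in the mitotic cells. Both genes thus differed more among the cells that are not mitotic than between decile 9 and the mitotic cells. CXCL10 was at 1.40 in decile 1, 1.21 in decile 5, 0.573 in decile 9 and 0.560 in the mitotic cells, so that decile 9 was about as low as they were. IFIT1 was near the mean in decile 1 (0.974) and decile 9 (1.06) and at 1.51 in the mitotic cells. GBP5 was at 1.03 in decile 1, 0.839 in decile 5, 1.25 in decile 9 and 1.30 in the mitotic cells.

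Each of the 11 interferon lists, and IDO1, was highest in decile 1 and not in the mitotic cells. MHC class I was at 1.16 in decile 1, 0.944 in decile 5 and 0.995 in the mitotic cells, and MHC class II at 1.23, 0.916 and 0.967 in the same order. The antiviral list was at 1.27, 0.967 and 0.944, and IDO1 at 1.29, 0.961 and 1.02. Cells of decile 1 were also the shallowest. With each cell thinned to 10000 UMIs, the mitotic cells over decile 1 were at 0.847 for class I, 0.815 for class II, 0.733 for antiviral genes and 0.533 for chemokines, against 0.856, 0.785, 0.744 and 0.533 without thinning.

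**Figure D4:**
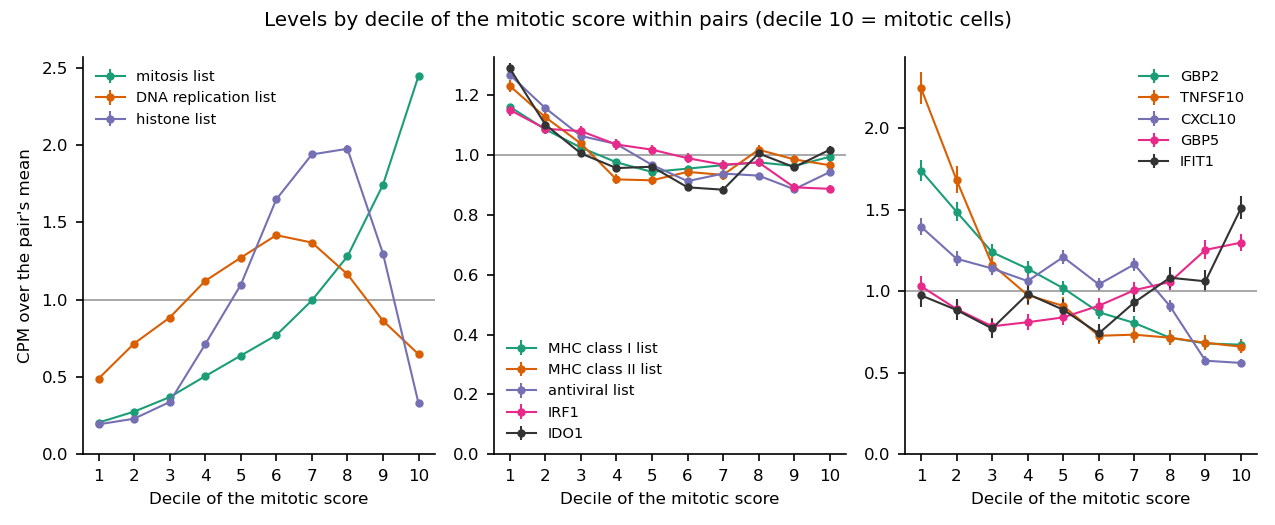
CPM over the pair's mean by score decile, with the mitotic cells as decile 10 and bars for the 95% counting interval, for cell cycle lists on the left, interferon lists with IRF1 and IDO1 in the middle, and single interferon genes on the right. Histones peak at 1.98 in decile 8 and are at 0.328 in the mitotic cells, and TNFSF10 is at 2.25 in decile 1 and 0.659 in the mitotic cells.

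Among themselves, the mitotic cells were split at the median score of their pair, giving 309 cells above and 302 below. Cells of the upper part had 1.21 times the mitosis mRNA and 0.631 times (0.599 to 0.665) the histone mRNA of the lower part. Class II genes were 1.18-fold higher in the upper part (1.14 to 1.21), HLA-DRA 1.32-fold (1.19 to 1.46), GBP5 1.42-fold (1.31 to 1.54) and class I 1.07-fold. IFIT1 was at 0.758 (0.689 to 0.833), OASL at 0.809 and CXCL11 at 0.745 (0.670 to 0.828) in the upper part over the lower. By summed UMIs, IFIT1 and OASL were higher in mitotic cells than in the rest, but lower in the upper part than in the lower. Much of the UMIs of both came from few cells, as given above. Counting intervals are too narrow for this contrast, and a few cells in 1 part could set it. GBP2 and TNFSF10, lower in mitotic cells, were at 1.18 (1.07 to 1.30) and 0.909 (0.799 to 1.03).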

How the data were processed

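Gene and hashtag UMIs were read from 1 droplet run of 1 pool. The deposited values are raw counts of UMIs per feature and barcode. Per the file headers they come from Cell Ranger 5.0.1; version 2.1.1 and GRCh38 stand in the submitters' processing notes, and which is right is not settled. The deposited matrix holds 246744793 gene UMIs over 7804 barcodes, and gene and hashtag UMIs share these barcodes.

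The 7201 cells kept had 500 or more genes and a mitochondrial share of 20% or less. A pair was the 2 highest of 8 hashtags where the second held at least 5 times the third plus 1 UMI; 6114 cells had one, in 18 of 28 possible pairs of at least 100 cells. No doublet caller was run and free RNA was not subtracted. Mitotic cells were the top 10% of a pair by score. Ratios are mitotic UMIs over the UMIs expected from each pair's rest, with exact conditional intervals at 95%, and spans set the lowest pair to at least 3 UMIs. Shares have exact Clopper-Pearson intervals after thinning to 10000 UMIs (586 mitotic and 5370 other cells; median depth before thinning 41538 and 29597 UMIs). A gene counted as higher or lower at 1.5-fold if it had at least 500 UMIs. Calculations were checked on simulated counts and used Python 3.11.15, numpy 2.4.6, scipy 1.17.1 and pandas 2.3.3.

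The mitotic cells and lists were chosen with earlier results of these data known. Genes named are the score genes, per list the 3 with most UMIs and the 2 with the most extreme ratios, the 10 highest and 10 lowest over genes with at least 2000 UMIs, and 12 fixed genes of the response; CCNB1, CD3E, COL1A2, CXCL2, EPCAM, HLA-B, HLA-C, IFNGR1, MX1, OASL, PSMB8, PSMB9, RNF213, TAP1, TNFSF10 and TYROBP were named after their values were seen. Alternatives changed the members, filters, depth, scaling and rest. No condition was compared. Some members of the lists are not reported singly here.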

Additional observations from a re-analysis of the deposited data

Results flagged for a closer look

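The score genes were also read in barcodes that no comparison used. In the 1087 cells without a hashtag pair they summed to 890 CPM (882 to 898), against 904 CPM in the 6114 cells with a pair, and 5.89% of the unpaired cells lay above the pooled 90th percentile of the score, at a median depth of 51617 UMIs. In the 603 barcodes that failed the cell filter the score genes summed to 386 CPM (367 to 406), and 2.49% lay above that score, at a median depth of 5200 UMIs. Both sums were above the level that 3 UMIs would give, 0.0568 CPM in the unpaired cells and 0.756 CPM in the failed barcodes.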

How the results depend on the processing

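No named gene or list past 1.5-fold changed its side of 1 under the 12 alternatives run on the ratios; many of those inside 1.5-fold did. Leaving aside the scaling per cell, described next, these included SOCS1 (0.737 to 1.09), HLA-DRA (0.875 to 1.07), CD74 (0.942 to 1.03), CD274 (0.902 to 1.03), IDO1 (0.965 to 1.07), GBP1 (0.882 to 1.05) and CCL5 (0.780 to 1.72). So did lists near 1: class I (0.962 to 1.03), class II (0.931 to 1.05), antiviral (0.863 to 1.005), guanylate-binding proteins (0.945 to 1.097), checkpoint (0.970 to 1.06) and receptors (0.930 to 1.01). Without division by depth, 2246 genes were at least 1.5-fold higher and 152 lower, with a median gene at 1.31, and the lists stood at 1.27 (transcription regulators), 1.31 (class I), 1.28 (class II), 1.35 (guanylate-binding proteins), 1.36 (checkpoint), 1.23 (antiviral), 1.36 (APOL, PARP and TRIM), 1.21 (inhibitors), 1.29 (receptors), 1.17 (cell death), 4.09 (mitosis), 0.807 (DNA replication) and 1.26 (immediate early genes). The histone list was at 0.736 with the top 20% of each pair, 0.457 without the deepest 5% of cells, 0.203 with 8 other score genes and 0.625 against the lower 50% by score. With those 8 genes, which shared 58.6% of the members, the inhibitors of JAK-STAT signalling stood at 1.001. Against the lower 50%, 724 genes were higher and the mitosis list was at 6.06. A minimum of 100 UMIs gave 1361 lower genes, and a minimum of 2000 gave 271 higher and 190 lower. The ratio of median depth was 1.28 with the top 20%. Leaving out each pair in turn, the chemokine list ranged from 0.588 to 0.677, class I from 0.987 to 1.003 and class II from 0.934 to 0.980. No paired analysis was possible because no result comes from a test over samples and the 2 libraries are 1 replicate each of 1 pool. Depth limits genes with few UMIs in mitotic cells, such as KYNU, CASP10, CCL2 and CXCL2.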

Other observations

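Other gene groups differed by a few members. Of 31 immediate early genes and genes with short-lived transcripts, 5 were at least 1.5-fold lower in mitotic cells and 1 higher. Over the genes counted the shares were 5.08% lower and 3.77% higher. The list stood at 0.960, below 1 in 14 of 18 pairs. MYC, a transcription factor of growth, stood at 12.2, 35.7 and 102 CPM in the lowest, median and highest pair in mitotic cells, against 37.4, 58.1 and 161 CPM in the rest, a ratio of 0.507 (0.475 to 0.541) that was lower in 17 pairs. FOSL1, an AP-1 subunit, was the higher one, at 323, 508 and 677 CPM in mitotic cells and 201, 338 and 416 CPM in the rest (ratio 1.54, 1.51 to 1.57, higher in 18 pairs). Among growth arrest and cyclin D genes, CDKN2C, an inhibitor of CDK4 and CDK6, had a ratio of 1.71 and the cyclin gene CCND3 one of 0.593.

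Epithelial genes were abundant in both groups, at 7146 CPM in the median pair in mitotic cells and 7537 CPM in the rest. The list's ratio was 0.953, below 1 in 15 of 18 pairs. Of its 9 members with at least 500 UMIs, 7 were below 1, and the median member was at 0.861. The tight junction gene CLDN4 stood at 112, 157 and 279 CPM in the lowest, median and highest pair in mitotic cells. In the rest it stood at 38.05, 74.6 and 107 CPM. Its ratio was 2.30 (2.22 to 2.39), and it was higher in mitotic cells in 18 of 18 pairs. Over the genes counted, 14.7% were higher in at least 15. Its relative CLDN1 had a ratio of 0.640 (0.591 to 0.692), lower in 18 of 18 pairs. The keratins KRT8 and KRT18 were at 0.820 and 0.852, each lower in 16 pairs, and EPCAM at 0.971. VIM, also in this list, went the other way, at 1.11 and higher in 16 pairs. Housekeeping genes summed to 0.997 with 0 of 12 past 1.5-fold, although ACTB, which encodes beta-actin, was at 1.11 and higher in 18 of 18 pairs. Markers of leukocytes, fibroblasts and endothelium were near absent: 9 genes summed to 31 UMIs in mitotic cells and 167 in the rest, with CD3E, TYROBP and COL1A2 at 0 in both.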
